A study of Mus musculus with 12 samples.

Results

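Genes of matrix remodelling and crosslinking were examined in whole-liver RNA-seq of 12 female mice: the lysyl oxidases *Lox*, *Loxl1* and *Loxl2*, the matrix metalloproteinases *Mmp2*, *Mmp14* and *Mmp13*, the tissue inhibitors of metalloproteinases *Timp1*, *Timp2* and *Timp3*, and the protease *Adamts1*. The 10 genes were taken by name from the 41743 genes that both deposited tables list, and each name matched 1 gene. There were 4 groups of 3 livers. YAP KO mice were on the C57BL/6 background, carried a floxed-stop EYFP reporter at the *ROSA* locus, and had both floxed copies of *Yap1* deleted by *Foxa3*-Cre, which is active in the foregut endoderm that gives rise to hepatocytes and bile duct cells. They were compared with WT (C57BL/6) littermates. YAP KO TAZ HET mice were of a mixed FVB and C57BL/6 background, and *Foxa3*-Cre deleted both copies of *Yap1* and 1 copy of *Wwtr1*, the gene of TAZ. These compound mutants were compared with WT (mixed) littermates. The mice were adults. The study analysed adult mice at 3 to 4 months of age but does not give the age of each sequenced mouse. Whether the WT littermates carried Cre or floxed alleles is not given in the sources used here.

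Hepatic scar matrix is built of fibrillar collagen and elastin, laid down largely by activated stellate cells and portal fibroblasts. Lysyl oxidases oxidise lysines of these fibres so that neighbouring chains become covalently joined, which makes the matrix stiff and hard to digest. Metalloproteinases cut collagens and other matrix proteins, TIMPs block them, and a complex of MMP14 and TIMP2 at the cell surface also activates pro-MMP2, so that TIMP2 both assists and restrains. YAP and TAZ are transcriptional coactivators that bind TEAD factors, and in cultured cells stiff matrix drives them into the nucleus.

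The deposited values are TPM (transcripts per 1000000), which adjust reads for gene length and library total. Every library sums to 1000000 TPM, so the reads behind a value cannot be read from them. The SE given is that of the fitted difference between groups. It comes from the spread among the livers of the fit, with each variance drawn toward that of genes of similar level. The study's methods state a target number of reads per sample, not the number counted in each liver. Between 14442 and 15047 genes were above 0 in a liver. *Yap1* measured 28.2 to 30.5 TPM in WT (C57BL/6) livers and 1.67 to 3.72 TPM in YAP KO livers, and 31.0 to 33.2 TPM in WT (mixed) livers and 8.63 to 11.5 TPM in compound mutant livers, so more *Yap1* transcript was left in the second model. *Wwtr1* did not mark the loss of 1 copy, since it measured 11.5 to 14.1 TPM in the mice labelled YAP KO TAZ HET against 7.73 to 8.38 TPM in their littermates and 13.3 to 16.7 TPM in YAP KO livers, and that label could not be checked from it. The hepatocyte list of 10 markers summed to 104400 to 138471 TPM in the 12 livers, but its largest genes moved in opposite directions. *Alb* had means of 78604 and 60138 TPM in WT (C57BL/6) and YAP KO livers, and 75447 and 61512 TPM in WT (mixed) and compound mutant livers. The means of *Trf*, in the same order, were 10487 and 30561 TPM, and 11436 and 31616 TPM. For the tests, TPM were divided by a scaling factor per liver (a trimmed mean of log ratios) and compared as log2(scaled TPM + 1) with limma. The factors were 1.07 to 1.22 in knockout livers and 0.852 to 0.947 in WT livers, and without them the median of all tested genes moved from -0.04 to 0.28 on the log2 scale in YAP KO mice and from -0.04 to 0.24 in compound mutant mice, so fold changes are given relative to the scaled median. The added 1 makes the log2 fold change of genes near 0 TPM smaller than the ratio of their TPM.

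Of the 10 genes, 9 reached the filter of at least 1 TPM in at least 3 livers in each model, and *Lox* did not. In YAP KO livers 8 of the 9 tested genes rose and *Timp3* was not called. Of all 11704 tested genes, 36.7% were called, 18.8% as higher and 17.9% as lower. In compound mutant livers the other 8 genes rose again and *Timp3* fell, where 38.2% of all 11741 tested genes were called, 19.2% as higher and 19% as lower. *Loxl1*, *Timp1* and *Mmp13* were under 1 TPM in at least 1 WT liver of each model and reached the filter only with the help of the knockout livers, so their place in these counts is not independent of the difference. Of the 6 genes at 1 TPM or more in every WT liver, 5 rose in both models, and *Timp3* was the other. In whole liver, a change in the number of cells of a type and a change in their RNA per cell cannot be told apart. In TPM as deposited, the YAP KO livers lay wholly above their WT livers for all but *Timp3*, a pattern that 47.5% of all tested genes showed, while 9.29% lay wholly below. The same 9 genes lay wholly above in compound mutant livers and *Timp3* wholly below, beside 44.4% and 10% of all tested genes.

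**Figure D1:**
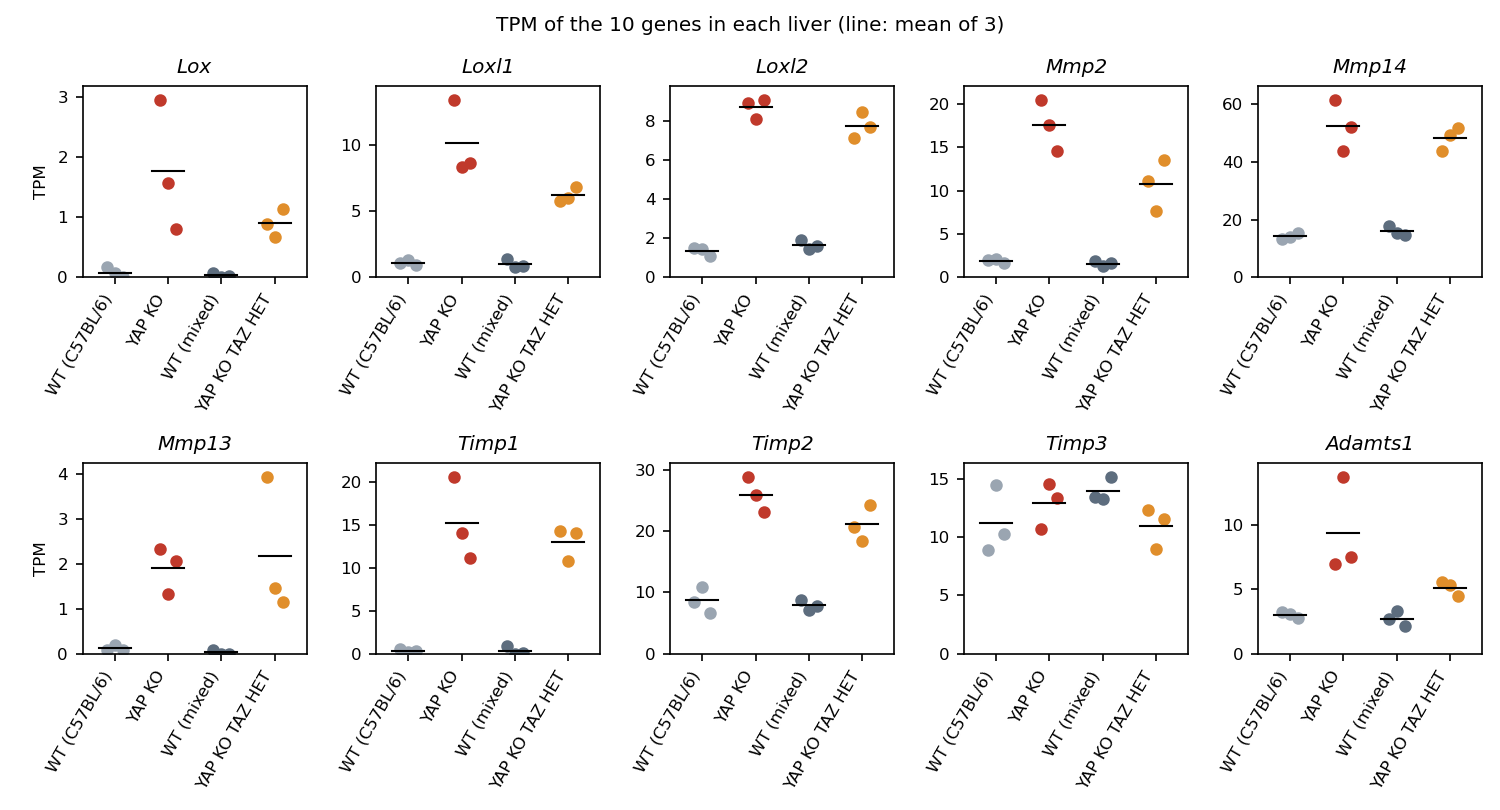
TPM (linear axis) of the 10 genes in each of the 12 livers by group, with 1 point a liver and a line at the mean of 3. In 9 panels every knockout liver lies above every WT liver, and only *Timp3* has overlapping YAP KO and WT (C57BL/6) points.

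The crosslinking enzymes were scarce in WT livers and were all higher in both models. *Loxl1*, whose product works mainly on elastic fibres, lies at chr9:58287738-58313186 on the minus strand of GRCm38. It measured 1.07, 1.32 and 0.927 TPM in WT (C57BL/6) livers and 13.4, 8.37 and 8.69 TPM in the YAP KO livers, a 9.18-fold ratio of means and a log2 fold change of 2.12 (SE 0.17, adjusted p = 6.4e-05). The WT (mixed) livers held 1.36, 0.744 and 0.881 TPM and the compound mutant livers 5.80, 5.97 and 6.88 TPM, a ratio of 6.24 and a log2 fold change of 1.65 (SE 0.16, adjusted p = 0.000153). Every knockout liver lay above every WT liver of its model.

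*Loxl2* (chr14:69609068-69695834, plus strand) acts on the collagen IV of basement membranes. It measured 1.52, 1.45 and 1.11 TPM in WT (C57BL/6) and 8.89, 8.11 and 9.06 TPM in YAP KO livers, with a log2 fold change of 1.77 (SE 0.14, adjusted p = 6.1e-05). Its YAP KO livers were close together, with a mean of 8.69 ± 0.505 TPM (SD, n = 3). In the other model it went from 1.90, 1.43 and 1.61 TPM to 7.14, 8.44 and 7.70 TPM, a log2 fold change of 1.49 (SE 0.13, adjusted p = 0.000111). Its groups did not overlap in either model.

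*Lox*, the founding member of the family, which crosslinks fibrillar collagen and elastin, stayed near the lower end of the scale. It measured 0.167, 0.0666 and 0 TPM in WT (C57BL/6) livers and 2.95, 1.58 and 0.802 TPM in YAP KO livers. The WT (mixed) livers held 0.0742, 0 and 0.0217 TPM and the compound mutant livers 0.883, 0.675 and 1.15 TPM. In both models no WT liver reached 0.2 TPM and no knockout liver was under 0.6 TPM, yet with 3 against 3 livers the exact two-sided permutation p was 0.1, the smallest possible. When limma was run on all genes above 0 without the filter, the log2 fold change of *Lox* was 1.17 (SE 0.24, adjusted p = 0.0138) in YAP KO and 0.80 (SE 0.10, adjusted p = 0.00208) in compound mutant mice. With 0.1 in place of the added 1, the differences in mean log2 were 3.10 and 2.77.

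Summed over *Lox* and *Loxl1* to *Loxl4*, the family made up 3.81 to 4.98 TPM in WT (C57BL/6) and 24.1 to 31.2 TPM in YAP KO livers, and 2.98 to 4.90 TPM and 17.0 to 23.6 TPM in WT (mixed) and compound mutant livers. The make-up of the sum was described after the values had been seen. *Loxl3*, which was 19.6% to 34.1% of the family in WT (C57BL/6) livers, was 6.86% to 9.59% in YAP KO livers (exact permutation p = 0.1, the smallest possible). Its own level was 1.97 to 2.31 TPM there against 0.854 to 1.30 TPM, and limma did not call it (log2 fold change 0.41, SE 0.16, adjusted p = 0.0716). In the mixed groups its share was 15.1% to 22.0% and 9.40% to 12.3%, and limma called it higher (0.74, SE 0.16, adjusted p = 0.00743). *Loxl1* and *Loxl2* together were the larger part of the sum in each of the 12 livers. *Loxl4* varied the most among compound mutant livers, at 1.07, 6.25 and 4.71 TPM.

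**Figure D2:**
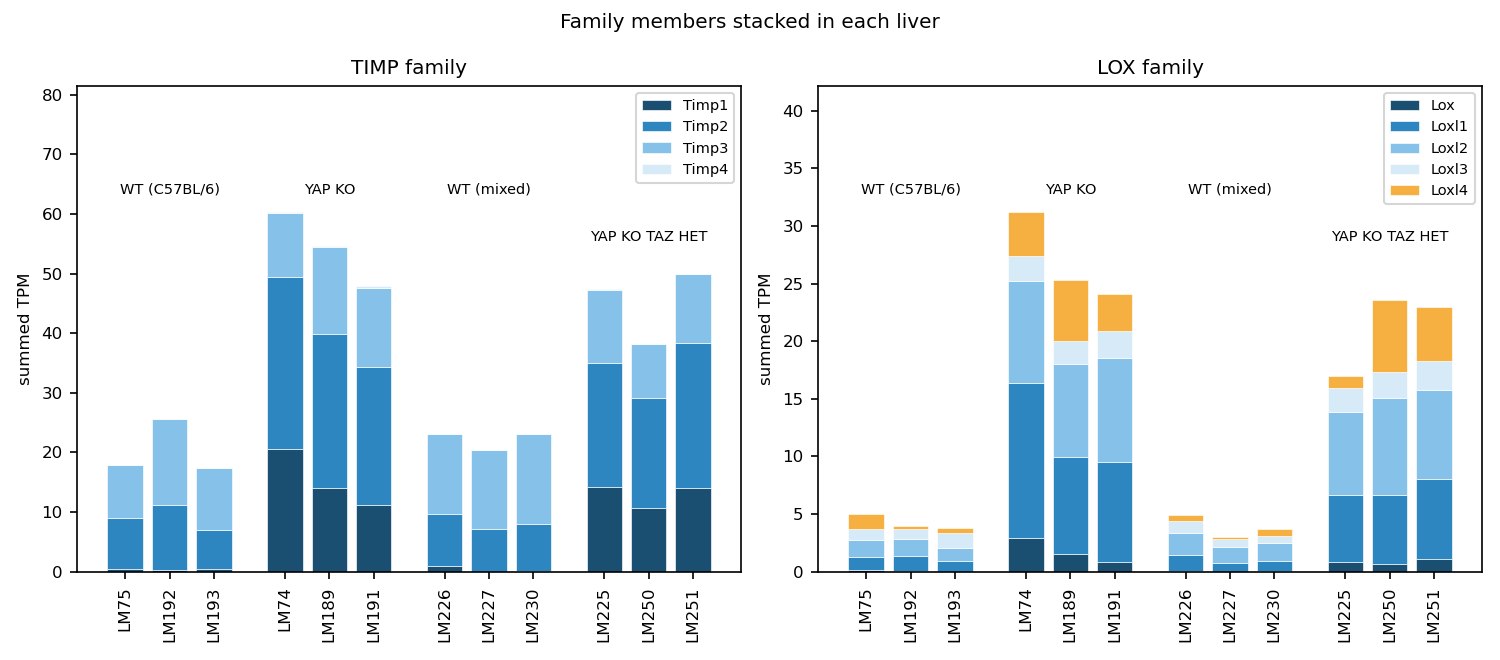
Stacked TPM (linear axis from 0) of the 4 TIMP genes (left) and the 5 lysyl oxidase genes (right) in each of the 12 livers. *Timp1* is a thin or absent band in WT livers and a broad band in all knockout livers, while the *Timp3* band stays between 8.84 and 15.2 TPM; the lysyl oxidase stacks reach 17.0 TPM or more in knockout livers and at most 4.98 TPM in WT livers.

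Among the proteases, *Mmp2* (chr8:92827291-92853420, plus strand), the gelatinase that digests denatured collagen and basement membrane, had the largest log2 fold change of the 3 with 1 added, and *Mmp13* had the largest with 0.1 added. It measured 1.96, 2.17 and 1.66 TPM in WT (C57BL/6) and 20.4, 17.5 and 14.6 TPM in YAP KO livers, a 9.09-fold ratio of means with a log2 fold change of 2.36 (SE 0.14, adjusted p = 1.5e-05). The WT (mixed) livers held 1.84, 1.25 and 1.69 TPM and the compound mutant livers 11.1, 7.64 and 13.6 TPM, a ratio of 6.76 and a log2 fold change of 1.91 (SE 0.20, adjusted p = 0.00026). Its WT and knockout livers did not overlap.

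*Mmp14* (chr14:54431612-54445364, plus strand), the membrane-bound collagenase that activates pro-MMP2, was the most abundant of the 10 genes in knockout livers. It went from 13.4, 14.1 and 15.2 TPM in WT (C57BL/6) to 61.4, 43.7 and 52.2 TPM in YAP KO livers, a log2 fold change of 1.46 (SE 0.12, adjusted p = 6.98e-05). In WT (mixed) livers it measured 17.8, 15.5 and 14.6 TPM and in compound mutant livers 43.7, 49.2 and 51.7 TPM, a log2 fold change of 1.23 (SE 0.12, adjusted p = 0.000177). The lowest knockout liver, at 43.7 TPM, stood far above the highest WT liver, at 17.8 TPM.

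*Mmp13* (chr9:7272514-7283331, plus strand) is the main interstitial collagenase of rodents. Its promoter is shown because a letter match to the AP-1 motif stands close to the start; the capitals mark that match in the 250 bases before the transcription start (RefSeq, GRCm38.p6, chr9:7272264-7272513, plus strand).
Mmp13: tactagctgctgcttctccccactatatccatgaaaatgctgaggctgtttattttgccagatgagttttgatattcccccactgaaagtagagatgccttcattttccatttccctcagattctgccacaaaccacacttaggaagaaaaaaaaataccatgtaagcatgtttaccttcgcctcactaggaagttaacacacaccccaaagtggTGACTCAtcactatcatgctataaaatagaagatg
The match begins 35 bases before the start. Searching TGANTCA on both strands, 6.75% of the 32851 promoter windows of this length held it, and of the 6 members in the table (*Adamts1*, *Mmp13*, *Mmp14*, *Timp1*, *Timp2* and *Timp3*) only that of *Mmp13* did. *Lox*, *Loxl1*, *Loxl2* and *Mmp2* are not in that table.

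*Mmp13* measured 0.0854, 0.198 and 0.0847 TPM in WT (C57BL/6) livers and 2.33, 1.34 and 2.07 TPM in YAP KO livers, a 15.6-fold ratio of means that the log2 scale shows as 1.23 (SE 0.17, adjusted p = 0.0012). In WT (mixed) livers it was 0.0884 TPM in one and listed at 0 in the other two, and in compound mutant livers it was 3.94, 1.47 and 1.14 TPM, a log2 fold change of 1.42 (SE 0.27, adjusted p = 0.00445). Both calls held with 0.1 added in place of 1, where the log2 fold changes were 2.92 and 3.85. The compound mutant liver with 3.94 TPM (LM225) was also the one with the highest summed monocyte and neutrophil markers, at 64.9 TPM against 16.8 and 25.6 TPM in LM250 and LM251. Of the latter, LM250 had more *Mmp13* (1.47 against 1.14 TPM) but the lower sum. In YAP KO livers the sums of 68.4, 59.0 and 62.4 TPM followed the order of *Mmp13*. The macrophage sum was highest in LM74 among YAP KO livers, as *Mmp13* was. Among compound mutant livers it was lowest in LM225, at 1186 TPM against 1307 and 1354 TPM. The part of these cells in the *Mmp13* level was not tested.

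Of the inhibitors, *Timp1* had the largest log2 fold change of the 9 tested genes in each model, with 1 or 0.1 added, and *Timp3* was not called higher in either. *Timp1* (chrX:20870166-20874735, plus strand) is a secreted inhibitor of many metalloproteinases. Its promoter is shown because it holds the TEAD letters GGAATG, in capitals, 247 bases before the start (RefSeq, GRCm38.p6, chrX:20869916-20870165, plus strand).
Timp1: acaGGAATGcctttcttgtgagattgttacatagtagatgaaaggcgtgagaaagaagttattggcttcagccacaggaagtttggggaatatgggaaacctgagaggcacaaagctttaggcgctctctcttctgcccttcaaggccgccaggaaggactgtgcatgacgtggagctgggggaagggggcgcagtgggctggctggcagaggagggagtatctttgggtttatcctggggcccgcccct
Among all 32851 windows, 12.6% held GGAATG on either strand, and of the 6 members in the table only *Timp1* did. A letter match is not a binding site, and no binding was measured in these livers.

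*Timp1* measured 0.514, 0.239 and 0.383 TPM in WT (C57BL/6) livers and 20.6, 14.1 and 11.2 TPM in YAP KO livers, a 40.4-fold ratio of means and a log2 fold change of 3.30 (SE 0.20, adjusted p = 1.66e-05), which ranked 54th from the top of the 11704 tested genes. It was 0.931, 0 and 0.117 TPM in WT (mixed) livers and 14.2, 10.8 and 14.1 TPM in compound mutant livers, with a log2 fold change of 3.26 (SE 0.25, adjusted p = 5.88e-05) and 5.30 with 0.1 added in place of 1. *Timp1* lies inside the gene *Syn1* on the opposite strand, whose level was 0.129 to 1.004 TPM over the 12 livers. Whether strand was used in counting is not given in the sources used here, so reads of the pair cannot be told apart, and every WT value of *Timp1* lay below the highest value of *Syn1*.

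*Timp2* (chr11:118301069-118355740, minus strand) went from 8.49, 11.0 and 6.66 TPM in WT (C57BL/6) to 28.9, 25.8 and 23.1 TPM in YAP KO livers, a 2.98-fold ratio and a log2 fold change of 1.16 (SE 0.16, adjusted p = 0.00113). In the other model it went from 8.73, 7.10 and 7.86 TPM to 20.7, 18.4 and 24.3 TPM, a ratio of 2.68 and a log2 fold change of 1.01 (SE 0.13, adjusted p = 0.000802). Groups of the same model did not overlap. *Mmp14* and *Timp2*, are the genes of the pro-MMP2 activating complex, and the ratio of their TPM overlapped between the groups of each model. It was 1.28 to 2.28 in WT (C57BL/6) and 1.69 to 2.26 in YAP KO livers, and 1.86 to 2.18 and 2.11 to 2.67 in the mixed groups (exact permutation p = 0.5 and 0.3). The ratio of *Mmp2* to *Timp2* moved apart, from 0.198 to 0.249 in WT (C57BL/6) to 0.634 to 0.708 in YAP KO livers, with 0.176 to 0.215 and 0.414 to 0.560 in the mixed groups (exact permutation p = 0.1 in each, the smallest possible). These ratios were chosen after the values had been seen.

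*Timp3* (chr10:86300372-86349506, plus strand) encodes the inhibitor that binds to the matrix itself and also blocks ADAM and ADAMTS proteases. It measured 8.84, 14.4 and 10.3 TPM in WT (C57BL/6) and 10.7, 14.6 and 13.3 TPM in YAP KO livers, which overlap, and the log2 fold change was -0.13 (SE 0.19, 95% CI -0.57 to 0.32, adjusted p = 0.644). Without scaling the value was 0.20 (adjusted p = 0.414), and without LM74 or LM192 it was 0.04, so its direction in YAP KO mice was not fixed by these data. In WT (mixed) livers it measured 13.4, 13.2 and 15.2 TPM and in compound mutant livers 12.3, 9.01 and 11.5 TPM, and it fell by 0.63 on the log2 scale (SE 0.14, adjusted p = 0.0079). Without scaling that fall was 0.33 and was not called (adjusted p = 0.0906). *Timp3* lies inside *Syn3* on the opposite strand, which was at 0.0195 to 0.584 TPM.

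The make-up of the TIMP family differed between WT and knockout livers, a description that needs no scaling between livers. *Timp3* was 49.5% to 59.4% of summed *Timp1* to *Timp4* TPM in WT (C57BL/6) livers and 17.7% to 27.9% in YAP KO livers, and 58.2% to 65.5% and 23.1% to 25.9% in WT (mixed) and compound mutant livers. *Timp1* was at most 4.03% of the sum in any WT liver and 23.3% to 34.2% in any knockout liver. *Timp2* was the largest part in each knockout liver, at 43.7% to 48.6%. With 3 against 3 livers the exact permutation p of the *Timp1* and *Timp3* shares was 0.1 in each model, the smallest possible. The summed TPM of *Mmp2*, *Mmp13* and *Mmp14* was 0.641 to 0.977 times that of *Timp1* to *Timp3* in WT (C57BL/6) livers and 1.15 to 1.45 times in YAP KO livers, and 0.706 to 0.852 times and 1.24 to 1.53 times in the mixed groups, again with exact permutation p = 0.1. These are transcript ratios and say nothing of active enzyme. The metalloproteinase sum leaves out other abundant members of that family. *Mmp19* was called in neither model, with means of 45.4 and 47.2 TPM, and of 53.1 and 50.9 TPM in the mixed groups. *Mmp15* rose in both, with means of 19.8 and 70.7 TPM, and of 20.7 and 78.6 TPM. No ratio with these added was computed, so the shift is that of the 3 summed genes alone.

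*Adamts1* (chr16:85793827-85803113, minus strand) encodes a secreted protease that cuts the proteoglycans aggrecan and versican. It measured 3.25, 3.06 and 2.76 TPM in WT (C57BL/6) and 6.95, 13.7 and 7.48 TPM in YAP KO livers, a log2 fold change of 1.02 (SE 0.25, adjusted p = 0.0147). In WT (mixed) livers it measured 2.67, 3.33 and 2.15 TPM and in compound mutant livers 5.53, 5.34 and 4.45 TPM, a log2 fold change of 0.47 (SE 0.15, adjusted p = 0.0371). That last call was kept in 4 of 12 alternatives, with adjusted p from 0.00772 to 0.171 and a log2 fold change of 0.29 under quantile normalization. The liver with the highest *Adamts1*, LM189, also had the highest summed immediate-early genes (a list of 14 such as *Fos* and *Egr1* that cells switch on within minutes of a stimulus), at 4248 TPM against 541 and 2094 TPM in LM74 and LM191 and 167 to 202 TPM in WT (C57BL/6) livers. In that list 10 of 12 tested genes rose in YAP KO mice and 7 of 11 in compound mutant mice, where the sum was 330 to 467 TPM against 149 to 253 TPM. The part of this in the *Adamts1* level was not tested.

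**Figure D3:**
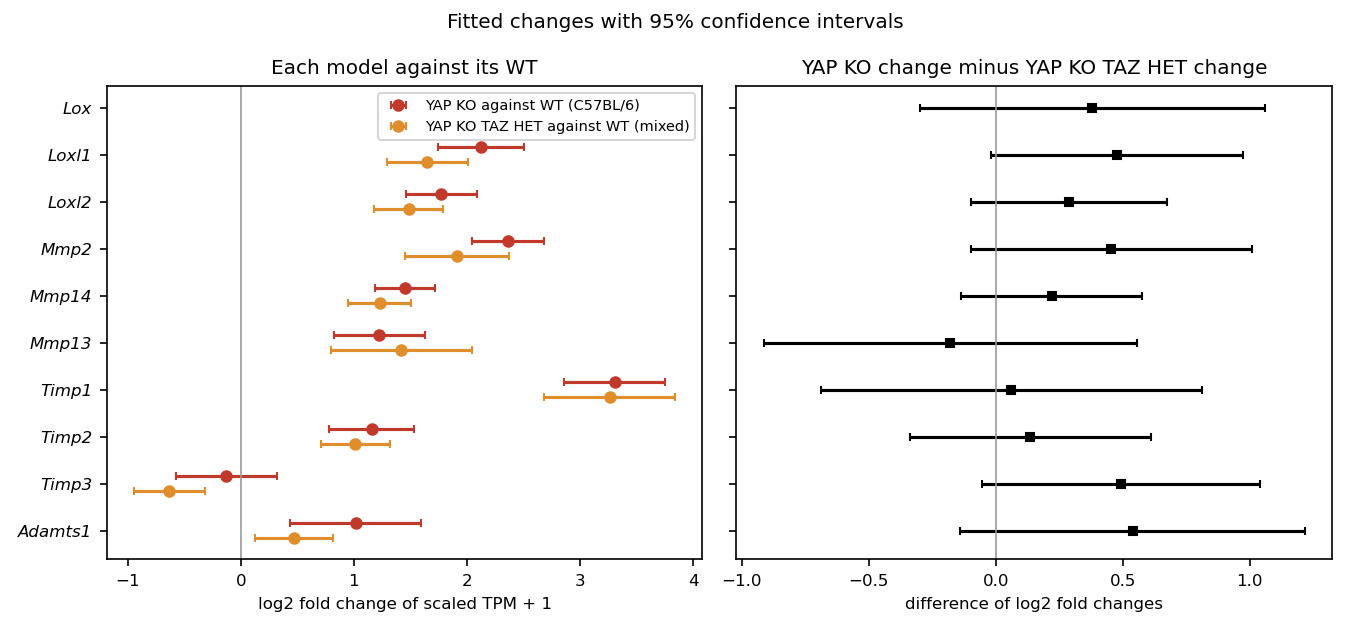
Left, log2 fold change of scaled TPM + 1 of the 9 tested genes in each model against its own WT; right, the YAP KO change minus the compound mutant (YAP KO TAZ HET) change for all 10 genes, each with its 95% confidence interval. On the left *Timp3* alone does not lie right of 0, and on the right all 10 intervals include 0.

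Whether the loss of 1 copy of *Wwtr1* altered these changes was asked with a contrast over all 12 livers, the YAP KO change minus the YAP KO TAZ HET change. None of the 10 genes was called by limma (adjusted p = 0.998 for each), and none had an unadjusted p under 0.05. Over all 12159 tested genes, 7 were called (0.0576%) and 555 had an unadjusted p under 0.05. For 9 of the 10 genes the contrast lay above 0, a larger rise or smaller fall in YAP KO mice, where 51.3% of all tested genes were positive. The 10 genes share the same livers and scaling factors and are not independent, so this count is only a description. It was 0.54 for *Adamts1* (95% CI -0.14 to 1.22), 0.49 for *Timp3* (-0.05 to 1.04), 0.48 for *Loxl1* (-0.02 to 0.97) and 0.45 for *Mmp2* (-0.10 to 1.01). It was 0.06 for *Timp1* (-0.69 to 0.81) and -0.18 for *Mmp13* (-0.91 to 0.56), both of which changed sign when single livers were left out. The intervals reach differences of about 1 on the log2 scale, so equal responses were not shown either. The models differed in background strain, in the *Wwtr1* copy and in the line of floxed *Yap1* mice they were bred from. The EYFP reporter is described for YAP KO mice alone. The *Yap1* transcript that was left also differed, with a mean of 2.44 TPM in YAP KO and 9.77 TPM in compound mutant livers. None of these can be told apart between the models. Of the 7 genes with enough TPM to test (*Lox*, *Timp1* and *Mmp13* had too little), none was called between WT (mixed) and WT (C57BL/6) livers and none had an unadjusted p under 0.05, where 0.216% of 11126 genes were called and 649 had an unadjusted p under 0.05. The largest of these differences was that of *Timp3*, at 0.26 (95% CI -0.11 to 0.64) with the WT (mixed) livers higher.

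A wider list of 94 genes of matrix crosslinking, proteolysis and its control was examined in the same fits. In YAP KO livers 57 were tested, of which 33 rose, 3 fell and 21 were not called, with a median log2 fold change of 0.70. In compound mutant livers 59 were tested, of which 35 rose, 4 fell and 20 were not called, with a median of 0.55. Of all tested genes 18.8% were called higher and 17.9% lower in the first model and 19.2% and 19% in the second, and the counts by role and of cell markers that follow stand beside the same shares. Many genes of the list reached the filter only through knockout livers. Of those at 1 TPM or more in all 3 WT livers, 19 of 38 rose and 3 fell in YAP KO mice, and 17 of 37 rose and 4 fell in compound mutant mice. Of the 57 tested in both, 28 rose in both, 1 fell in both and none was called in opposite directions. Without scaling 42 rose and 0 fell in YAP KO mice and 45 rose and 0 fell in compound mutant mice, a scaling under which 84% of the calls among all genes were higher in the first model and 82.2% in the second, against 51.3% and 50.2% with it. None of the genes that fell was called without scaling, namely *Bmp1*, *Adamts13* and *Plg* in YAP KO mice, and *Plg*, *Reck*, *Adamtsl4* and *Sulf2* in compound mutant mice. Under quantile normalization *Adamts13* (-0.87, adjusted p = 0.00581), *Reck* (-0.84, adjusted p = 0.00182), *Adamtsl4* (-0.71, adjusted p = 0.00794) and *Sulf2* (-0.51, adjusted p = 0.0165) were called lower, and *Bmp1* and *Plg* were not.

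By role, the genes that modify and crosslink collagen rose in 12 of 23 cases and fell in 1 in YAP KO mice, and rose in 14 of 23 in compound mutant mice. Of them *Tgm2*, a transglutaminase that crosslinks proteins through glutamine, went from 57 to 80.2 TPM in WT (C57BL/6) to 334 to 419 TPM in YAP KO livers, while the other model went from 51.6 to 74.4 TPM to 346 to 380 TPM, with log2 fold changes of 2.09 (SE 0.12, adjusted p = 1.64e-05) and 2.19 (SE 0.14, adjusted p = 2.04e-05). Of the other metalloproteinases 3 of 4 tested rose in YAP KO and 4 of 5 in compound mutant mice. *Mmp12*, the macrophage elastase, was at most 0.231 TPM in any WT liver and measured 10.2, 5.46 and 7.96 TPM in YAP KO and 11.8, 7.67 and 7.31 TPM in compound mutant livers, with log2 fold changes of 2.79 (SE 0.19, adjusted p = 3.56e-05) and 2.92 (SE 0.17, adjusted p = 1.66e-05). Of the other ADAMTS genes 6 of 9 rose and 1 fell in YAP KO mice and 7 of 10 rose and 1 fell in compound mutant mice. *Adamtsl2*, an ADAMTS-like protein with no protease activity, rose from 1.73 to 1.92 TPM in WT (mixed) to 9.55 to 13.5 TPM in compound mutant livers, a log2 fold change of 1.83 (SE 0.16, adjusted p = 9.6e-05). In the other model it rose from 2.07 to 5.49 TPM to 12.7 to 19.9 TPM, a log2 fold change of 1.73 (SE 0.30, adjusted p = 0.00296).

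The other inhibitors and the plasminogen system were divided, with 4 of 10 rising and 1 falling in YAP KO mice and 4 rising and 2 falling in compound mutant mice. *Plat*, the tissue plasminogen activator, rose from at most 0.608 TPM in any WT liver to 7.20 to 9.29 TPM in YAP KO and 4.80 to 5.14 TPM in compound mutant livers (log2 fold changes of 2.74, SE 0.22, adjusted p = 7.61e-05, and 1.97, SE 0.18, adjusted p = 0.000116). *Plg*, the plasminogen that it acts on and a hepatocyte product, had group means of 1780 TPM in WT (C57BL/6) and 1688 TPM in YAP KO livers. *Reck*, a membrane-anchored inhibitor of MMP14, MMP2 and MMP9, measured 2.21 to 3.25 TPM in WT (mixed) and 1.64 to 1.75 TPM in compound mutant livers and fell by 0.61 on the log2 scale (SE 0.14, adjusted p = 0.0101), a value of -0.39 without scaling (adjusted p = 0.0743) and -0.84 under quantile normalization (adjusted p = 0.00182). Of the remaining degrading enzymes 8 of 11 rose in YAP KO mice, and 6 rose and 1 fell in compound mutant mice. *Ctsk*, the collagen-cutting cathepsin K, measured 0.674 to 1.36 TPM in WT (C57BL/6) and 10.1 to 11.2 TPM in YAP KO livers, a log2 fold change of 2.26 (SE 0.17, adjusted p = 5.19e-05). In the mixed groups it measured 0.703 to 1.78 TPM and 3.39 to 6.49 TPM, a log2 fold change of 1.23 (SE 0.25, adjusted p = 0.00617). In the contrast between the models none of the 59 tested genes was called, and 3 had an unadjusted p under 0.05, beside 555 of all 12159 genes.

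**Figure D4:**
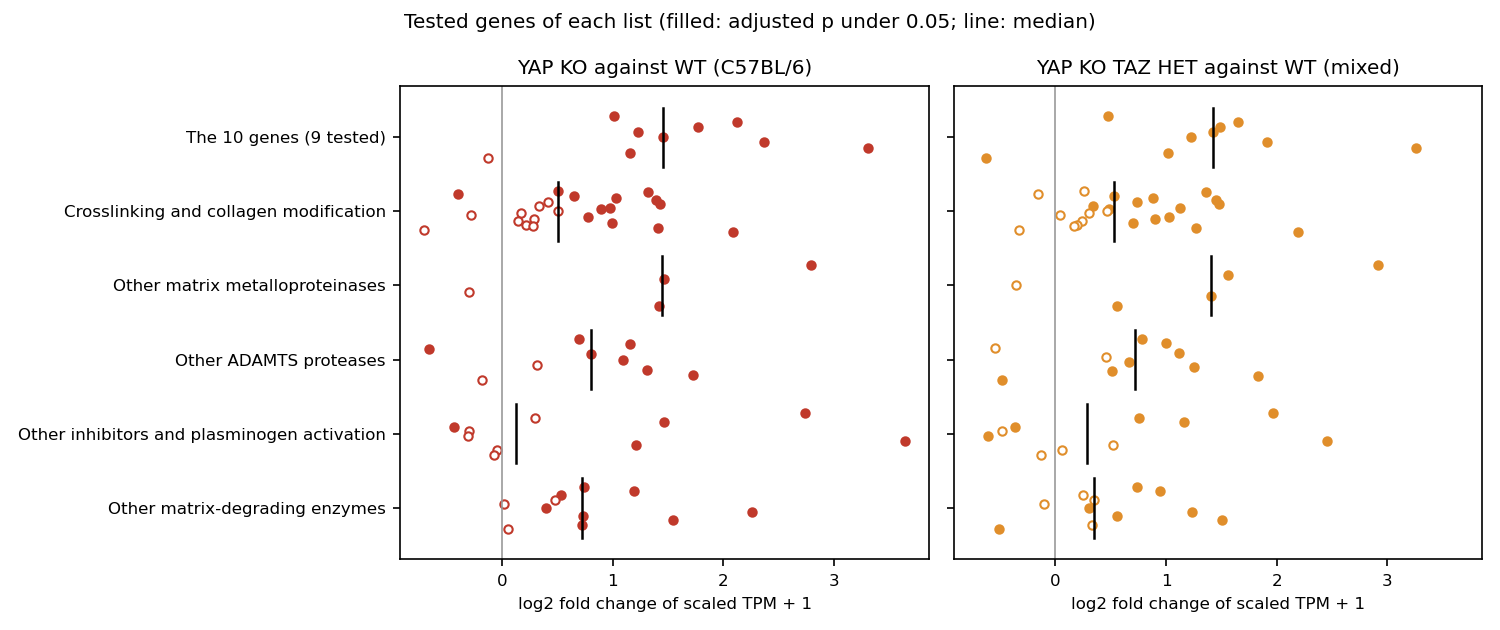
Log2 fold change of scaled TPM + 1 of every tested gene of the 10 and of each wider list, in both models on the same axis; filled points have an adjusted p under 0.05, open points do not, and lines are medians. Most filled points lie right of 0 in every row.

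Most substrates of these enzymes and most macrophage markers were also higher. Stellate and endothelial sums overlapped between the groups, although single markers of each list went in both directions. Of 21 collagens, elastin and other matrix proteins, 17 of 19 tested rose in YAP KO mice and 17 of 18 in compound mutant mice, and their sum was 470 to 523 TPM in WT (C57BL/6) and 984 to 1153 TPM in YAP KO livers, and 467 to 609 TPM and 758 to 970 TPM in the mixed groups. Of the macrophage markers 10 of 11 rose in both models, and their sum was 297 to 370 TPM in WT (C57BL/6) and 906 to 1377 TPM in YAP KO livers, and 259 to 574 TPM and 1186 to 1354 TPM in the mixed groups. All 7 tested monocyte and neutrophil markers rose in YAP KO mice and 3 of 7 in compound mutant mice, with sums of 10.5 to 16.8 TPM, 59.0 to 68.4 TPM, 6.88 to 9.58 TPM and 16.8 to 64.9 TPM in the order WT (C57BL/6), YAP KO, WT (mixed) and YAP KO TAZ HET.

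Stellate cell markers were called at rates near those over all genes. In YAP KO mice 3 of 12 rose and 3 fell, with a summed 329 to 355 TPM in WT and 336 to 426 TPM in YAP KO livers, and in compound mutant mice 4 rose and 1 fell, with 322 to 350 TPM and 295 to 506 TPM. *Pdgfrb* (ratios of means 5.54 and 5.06), *Pdgfra* (3.34 and 3.91) and *Dcn* rose in both models, and *Hgf* in compound mutant mice. *Ecm1* fell in both, and *Lrat* and *Rgs5* in YAP KO mice. The sum is largely *Ecm1* (means of 142 and 62.5 TPM, and of 154 and 98.5 TPM) and *Dcn* (109 and 191 TPM, and 94.5 and 196 TPM), which moved in opposite directions. Of the portal fibroblast and myofibroblast markers 4 of 7 tested rose in YAP KO mice, with sums of 13.5 to 26.5 TPM and 38.2 to 58.2 TPM, and 1 of 6 in compound mutant mice, with 17.4 to 30.9 TPM and 38.3 to 44.7 TPM. *Acta2*, the smooth muscle actin of myofibroblasts, was called in neither (means of 2.62 and 4.25 TPM, and of 6.38 and 3.50 TPM). Endothelial markers summed to 118 to 125 TPM and 112 to 174 TPM, and 142 to 156 TPM and 141 to 180 TPM, with 1 of 10 rising and 2 falling in YAP KO mice and 2 rising and 2 falling in compound mutant mice. Of the biliary markers 3 of 6 tested rose in each model and 1 fell in compound mutant mice, with sums of 37.4 to 65.8 TPM and 349 to 772 TPM, and 51.0 to 70.9 TPM and 130 to 243 TPM. The 3 that rose were *Sox9*, *Spp1* and *Cldn7*. *Spp1* alone had means of 40.0 and 450 TPM, and of 45.4 and 154 TPM, so it was most of the mean sum in each group. *Krt19* was called in neither model. *Epcam* was not called in YAP KO mice and fell in compound mutant mice, from a mean of 2.51 to 0.377 TPM. Of the 10 hepatocyte markers 1 rose and 2 fell in each model. No list had a gene at 0 in all 12 livers, and the part of any of these cells in the levels of the 10 genes was not tested.

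The 10 genes did not share 1 order of livers. In YAP KO mice LM74 held the highest TPM of 7 of them (*Lox*, *Loxl1*, *Timp1*, *Timp2*, *Mmp2*, *Mmp14* and *Mmp13*), and it also had the largest scaling factor, 1.22, and the highest macrophage sum. In WT (mixed) mice LM226 was highest for 8, with the largest scaling factor, 0.947, and the highest macrophage sum of its group. In compound mutant mice LM251 was highest for 5 and LM225 for 4. Over the 12 livers and on the log2 scale, the closest pair among the members was *Loxl1* with *Mmp2* at Pearson r = 0.987, which was 0.572 for deviations from the group means. By those deviations the closest was *Timp2* with *Mmp2*, at 0.786, with r = 0.982 over the 12 livers. Points of such a correlation share their library and its scaling, and the first value holds the group difference itself, so both are descriptions.

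Among all 12159 tested genes, the patterns most like that of *Timp2* were those of *Col6a2*, *Bgn* and *Fstl1* (r = 0.990, 0.989 and 0.987 over 12 livers), and r stayed at 0.880, 0.926 and 0.864 for deviations from group means. For *Mmp2* they were *Col6a3*, *Ccdc80* and *Olfml3* (r = 0.995, 0.992 and 0.991), for *Loxl1* *Scube1*, *Glis3* and *Olfml3* (0.991, 0.991 and 0.990) and for *Loxl2* *Nid1*, *Krt8* and *Nfkb2* (0.996, 0.995 and 0.994). For *Lox* they were *Nuf2*, *Ccna2* and *Fbn1* (0.976, 0.971 and 0.965). *Mmp14* was most like *Clip2*, *Src* and *Serpinb6a* (0.992, 0.991 and 0.991), *Timp1* most like *Slc1a4*, *Dnah1* and *Cd14* (0.991, 0.991 and 0.989), and *Mmp13* most like *Alpk1*, *Gpnmb* and *Chil3* (0.984, 0.976 and 0.976, and 0.900, 0.884 and 0.900 for deviations). *Adamts1* was most like *Jund*, *Epha2* and *Ddit4* (0.956, 0.953 and 0.952). For *Timp3* they were *Utp18*, *Nucks1* and *Polr3gl* (0.962, 0.929 and 0.925), and its r with each of the other 9 members was negative, from -0.667 to -0.274, although for deviations from group means r was positive with *Timp2* (0.428), *Mmp2* (0.307) and *Adamts1* (0.287).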

How the data were processed

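RNA of whole liver from 12 female mice was sequenced. The authors mapped and counted reads per gene in CLC Genomics Workbench on the mouse build GRCm38.p6 and deposited TPM per liver, with their own fold changes and p-values of each model, which were not used. No TPM column lacked a sample (0), and 0 pairs of livers were identical. Each liver is 1 mouse by its number, and p-values set the difference between groups against the spread between these mice. The number of reads counted in each liver is not in the TPM.

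TPM were divided by an unweighted trimmed-mean factor (trims of 30% on log ratios and 5% on levels), 1 was added, and log2 values were tested for genes reaching 1 TPM in 3 or more livers of the fit, two-sided with limma 3.58.1 in R 4.3.3 (lmFit, eBayes with trend; Benjamini-Hochberg over all tested genes, threshold 0.05). Each model was fitted with its own 6 livers and the difference between models over 12. Single values were compared with exact permutation tests (scipy 1.17.1). The fits were also run on simulated data in which far fewer genes changed than were called here, so that run does not test them under changes this broad.

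The members, lists, tests and alternatives were chosen with earlier results of these data known. Named were all 10 members, the 5 largest calls in each direction of the wider list whose groups did not overlap, overlapping genes, *Yap1* and *Wwtr1*, the 3 most similar genes of each member, and list markers that move with a result. One gene that this rule names is not reported here. *Bmp1*, *Adamts13*, *Plg*, *Sulf2*, *Mmp15* and *Mmp19* were chosen after their values were seen. So were the single biliary, stellate, hepatocyte and substrate genes, and the shares and ratios within families. Alternatives were 0.1 added in place of 1, the filter left out or raised to 5 TPM, unscaled TPM, quantile normalization, robust variance shrinkage, all 12 livers in 1 fit, and each liver left out. Genes were matched to GENCODE M21, and 6 members to the RefSeq promoter table.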

Additional observations from a re-analysis of the deposited data

How the results depend on the processing

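The counts of called members stayed within 1.5 times of those reported in all alternatives of each comparison. They dropped to 6 in either model when 1 of its knockout livers was left out, where *Timp1* and *Mmp13* no longer reached the filter and, in YAP KO TAZ HET mice, *Adamts1* was no longer called (adjusted p 0.0690 to 0.129). The wider list was less stable in YAP KO TAZ HET mice, where 39 of its genes were called: 17 were called at a minimum of 5 TPM, where fewer genes are tested, and 21 (without LM251) to 33 when 1 liver was left out, with 24 without LM225 and 23 without LM250. In YAP KO mice 36 were called, and 24 to 34 when 1 liver was left out.

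The direction of *Timp3* in YAP KO mice turned to 0.20 without scaling and ran from -0.246 to 0.0415 when 1 liver was left out, being 0.0415 without LM74 and 0.0356 without LM192. Differences between the models near 0 also turned: *Timp1* to -0.62 with 0.1 added and -0.24 to 0.26 with 1 liver left out, *Timp2* from -0.0265 to 0.28 and *Mmp13* from -0.38 to 0.15 with 1 liver left out; the cause was not tested. No member was called for the difference, or between the WT groups, in any alternative. No analysis paired by litter was possible, because the litter of each mouse is not given in the sources used here. *Lox*, *Mmp13* and *Timp1* were each under 1 TPM in all WT livers, and without read counts the precision of those values is not known.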
